A study of Mus musculus with 6 samples.

Results

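The genes described here fold, check and clear proteins in the endoplasmic reticulum, or sense and answer a load of unfolded protein there. They were given as a list of 33 gene symbols, and a member was any probe set whose annotation named exactly 1 of those genes. All 33 genes were found, with 82 probe sets, among 18194 genes named alone and 45037 probe sets that are not array controls. A further probe set named Sec61b together with another gene and was left out. The rule for membership uses gene names and no measured value.

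RNA from cultured 3T3-L1 cells, mouse fibroblasts widely used because they can become fat cells, was hybridised to 6 oligonucleotide arrays of 1 colour each. The groups were 3 control samples and 3 samples given resveratrol, a plant polyphenol, with no other agent or allele named for either group. The labels state neither the dose, nor the length of treatment, nor whether the cells had been differentiated. No label says that the 3 samples of a group are separate cultures or were grown on separate occasions. The p-values therefore measure only the spread between these samples. With so few arrays the precision of each value is limited.

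Proteins that are secreted or sit in membranes enter the endoplasmic reticulum through a channel, are bound by chaperones such as BiP, receive disulfide bonds and sugar chains, and leave for the Golgi once folded. Proteins that fail to fold are drawn back into the cytosol and degraded. When unfolded protein builds up, the membrane sensors IRE1 (gene Ern1), ATF6 and PERK (gene Eif2ak3) start the unfolded protein response. IRE1 splices Xbp1 RNA, and the resulting factor, together with the released part of ATF6, raises transcription of chaperone and degradation genes. PERK slows translation and raises ATF4, which acts through genes such as Ddit3 (the factor CHOP) and Trib3 (a pseudokinase). In fat cells this machinery serves the secretion of adiponectin and other adipokines.

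ATF6, with the CCAAT-binding factor NF-Y, is known to act through the endoplasmic reticulum stress response element, which is CCAAT and CCACG with 9 bases of any kind between them. The type II element is ATTGG and CCACG with 1 base between them. Both strands of the 250 bases before the annotated start were searched in the RefSeq promoters of assembly GRCm38.p6, which held 28 of the 33 members. The first element was present in 10 of these 28 members (35.7%), against 35 of 27025 genes in all (0.13%) and 37 of 32851 promoters in all (0.113%). Only Herpud1 among the members held the type II element, which 10 genes held in all (0.037%). The elements of the 11 members with either one (39.3% of the 28) are printed below, and the other 17 held neither. The list was drawn up around the response that these elements are known to serve. The higher share among the members is therefore not an independent finding. Capitals mark the fixed letters, each is written in the direction of the element, and Hsp90b1 had 2.

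Hspa5: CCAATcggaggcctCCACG
Hsp90b1: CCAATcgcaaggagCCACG
Hsp90b1: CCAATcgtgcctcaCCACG
Pdia6: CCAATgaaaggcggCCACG
Calr: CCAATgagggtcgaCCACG
Canx: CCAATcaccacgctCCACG
Dnajc3: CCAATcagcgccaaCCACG
Creld2: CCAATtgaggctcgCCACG
Syvn1: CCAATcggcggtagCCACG
Ero1b: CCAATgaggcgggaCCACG
Derl3: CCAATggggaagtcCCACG
Herpud1: ATTGGgCCACG

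The fixed letters were set by the search, and the letters between them differed from gene to gene. In Hspa5 the element ended 47 bases before the annotated start, and in Syvn1 it ended 26 bases before it. Another motif, TGACGTGG, the core of the site known for spliced XBP1, was found in Txndc5 alone among the members and in 163 of the 27025 genes (0.603%). The last 150 bases before the start are given for Hspa5, which encodes the chaperone BiP, and for Herpud1, the member with the lowest difference between the groups, each on the plus strand and with the element in capitals.

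Hspa5, chr2:34771940-34772089: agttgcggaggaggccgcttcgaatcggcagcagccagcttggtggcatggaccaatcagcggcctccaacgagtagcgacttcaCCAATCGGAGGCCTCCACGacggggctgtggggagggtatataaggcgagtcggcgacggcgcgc
Herpud1, chr8:94386279-94386428: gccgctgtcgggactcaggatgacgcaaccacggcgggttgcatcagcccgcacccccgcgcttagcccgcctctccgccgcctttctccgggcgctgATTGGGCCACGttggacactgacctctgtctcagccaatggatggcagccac

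None of the 33 member genes passed the test between resveratrol and control cells, in either direction. Each value is a deposited intensity turned into log2(intensity + 16), a scale that understates changes of dim probe sets, and a difference is resveratrol minus control. The brightest probe set, by its mean over all arrays, stands for a gene. limma's moderated test with Benjamini-Hochberg adjustment over 27022 probe sets, at an adjusted p under 0.05, called 0 of the 78 member probe sets bright enough to be tested. The remaining 4 of the 82, a further probe set each of Pdia4, Ern1, Edem2 and Ero1b, were too dim. Over all probe sets tested, 1077 (3.99%) were called higher and 1143 (4.23%) lower, 8.22% in either direction. Over all 12649 genes at their brightest probe set, 676 (5.34%) were higher and 659 (5.21%) lower, 10.6% in either direction. At an unadjusted p under 0.05 the same limma fit held 6 of the 78 member probe sets (7.69%), against 5866 of all probe sets (21.7%).

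The intervals were narrow as well as the differences small. The differences of the 33 genes ran from -0.39 for Herpud1 to 0.32 for Ero1b, with a median of -0.05, against a median of 0.02 over all genes. The median size, with the sign left aside, was 0.0976 for the members and 0.148 for all genes. The 95% interval of the difference lay within 0.5 of 0 on the log2 scale for 29 of the 33 genes (87.9%), against 61.6% of all genes. It lay within 1 for all 33. Of all genes tested, 15.3% lay outside the members' range. Of the 1335 called genes, 383 (28.7%) had a difference no larger in size than the largest of a member, and the smallest called size was 0.246. That share is taken among called genes only, so it cannot give how often the test finds a change of this size. The members' median SE was 0.0951, below the 0.115 of all genes. Many members had bright probe sets, and neither SE nor interval was compared with genes of like brightness. These data bound the members' changes and do not show that the groups were equal.

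**Figure D1:**
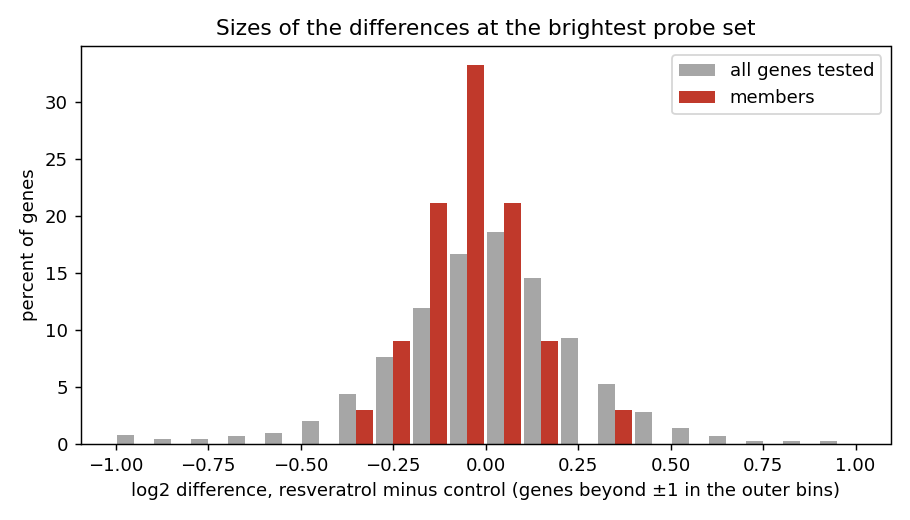
Percent of genes (vertical axis) by log2 difference, resveratrol minus control (horizontal axis), for the 33 members in red and all 12649 genes tested in grey, each gene at its brightest probe set. Genes beyond 1 in either direction are in the outer bins; the members lie between -0.39 and 0.32.

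Groups that do not overlap, with every resveratrol array above or below every control array, were likewise less frequent among the members than in the table. That was so for 10 of the 78 member probe sets (12.8%), 3 higher and 7 lower, against 26.4% of all probe sets. By genes it was 5 of 33 (15.2%), 2 higher and 3 lower, against 30.2% of all genes. The 5 genes were Ero1b and Txndc5, higher, and Dnajb9, Derl1 and Atf6, lower. More members had a difference below 0 than above it, 22 of 33 genes, against 46.3% of all genes. With a block for the brightness of the spike controls, described further on, 17 of the 33 were below 0 and the members' median was -0.02. That median was -0.04 among the arrays of brighter spikes, with resveratrol replicate 1 as the only treated array. Among those of dimmer spikes it was 0.01, with control replicate 3 as the only control array.

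**Figure D2:**
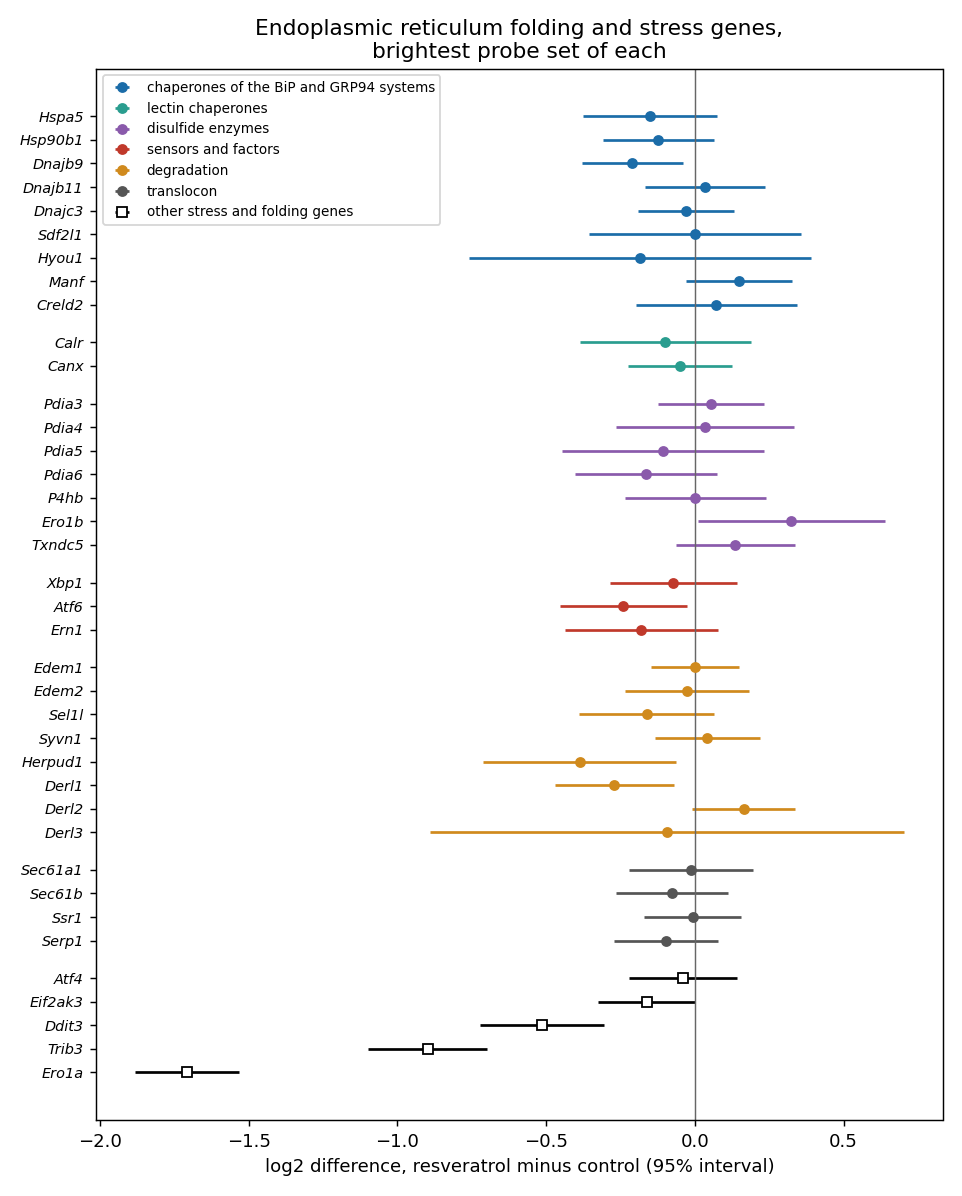
Log2 difference, resveratrol minus control (horizontal axis), with its 95% interval from limma, for the brightest probe set of each member (filled circles, coloured by role) and of 5 other stress and folding genes (open squares). The members' points lie between -0.39 and 0.32, while Ddit3, Trib3 and Ero1a lie at -0.51, -0.90 and -1.71.

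The chaperones of the BiP and GRP94 systems comprised 9 genes with 18 tested probe sets, and 0 passed the test. With 10.6% of all genes called, 0 calls in a set this small, here or in the roles below, says little. Hspa5, which encodes BiP, the main chaperone of the compartment and the usual readout of its stress response, had intensities of 5783, 6072 and 4826 on the control arrays and 5269, 4717 and 4974 on the resveratrol arrays. The groups overlapped, with control replicate 3 below 2 of the 3 resveratrol arrays. The difference was -0.15 ± 0.10 (SE, n = 3 a group, limma adjusted p = 0.448), with a 95% interval from -0.38 to 0.07. Its other probe sets had -0.07 and -0.03. Replicates 1 and 2 of control and replicate 1 of resveratrol, the brightest of the 6 for Hspa5, are also the arrays with brighter spike controls, described further on.

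Hsp90b1 encodes GRP94, the HSP90 of the compartment. Its brightest probe set had 2198, 2414 and 2574 on the control arrays and 2344, 2091 and 2157 on the resveratrol arrays, and these groups overlapped. The difference was -0.12 ± 0.09 (SE, limma adjusted p = 0.465). A second probe set had 1819, 1943 and 1810 in control and 1464, 1568 and 1621 in resveratrol, so that every resveratrol array was below every control array. Its difference, -0.26 ± 0.08 (SE), had the lowest adjusted p of all member probe sets in limma, 0.0597. It passed with quantile normalization (0.0414) and over the brightest 40% of probe sets (0.0398).

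Values on each array are also given for Dnajb9, Hyou1, Calr, Ero1b, Txndc5, Herpud1 and Derl1, which were chosen after their values were seen. Dnajb9, a BiP co-chaperone that holds IRE1 in its inactive form, had 1762, 1821 and 1948 in control and 1533, 1554 and 1690 in resveratrol. All resveratrol arrays were lower, with a difference of -0.21 ± 0.08 (SE, limma adjusted p = 0.131). The difference was -0.22 among the arrays of brighter spikes and -0.26 among those of dimmer spikes.

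Hyou1, a large chaperone that exchanges nucleotides on BiP, had the widest interval of this group of genes. It had 922, 1377 and 1012 in control and 1635, 759 and 700.4 in resveratrol, with the highest and the lowest array both among the treated ones. The difference was -0.18 ± 0.26 (SE, limma adjusted p = 0.758), while a second probe set had 0.29 ± 0.15 (0.289). Single arrays moved the first value widely, to -0.57 (adjusted p = 0.0609) without resveratrol replicate 1 and to 0.04 (0.966) without resveratrol replicate 3, and with the spike split as a block it was 0.03. Manf, a secreted stress-induced protein, had 915 ± 63.7 (SD, n = 3) in control and a mean of 1017 in resveratrol, a difference of 0.15 (limma adjusted p = 0.322). The other differences were 0.07 for Creld2, 0.03 for Dnajb11, 0.00 for Sdf2l1 and -0.03 for Dnajc3. Dnajb11 and Dnajc3 are further co-chaperones of BiP, and Creld2 and Sdf2l1 are stress-induced folding factors. Their limma adjusted p ran from 0.803 to 0.998.

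Calreticulin and calnexin are the lectins that hold newly glycosylated proteins. Calr had 5860, 6684 and 4643 on the control arrays and 5926, 4991 and 4998 on the resveratrol arrays. The control group spanned the whole of the resveratrol group. The difference was -0.10 ± 0.13 (SE, limma adjusted p = 0.736), and the other probe sets had -0.02 and -0.04. Canx had 2194 ± 166 (SD, n = 3) in control and 2116 ± 37.1 in resveratrol, a difference of -0.05 (limma adjusted p = 0.788), with -0.07 and 0.10 at its other probe sets.

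The disulfide enzymes also gave 0 calls, over 7 genes and 11 tested probe sets. Of these genes Ero1b, an oxidase that recharges protein disulfide isomerase, had the highest difference of all members. It had 50.8, 47.3 and 56.8 in control and 73.3, 75.6 and 58.0 in resveratrol, which put all treated arrays above all control arrays by a narrow margin. The difference was 0.32 ± 0.14 (SE, limma adjusted p = 0.211). A second, dimmer probe set had -0.05. Txndc5, a thioredoxin-domain isomerase, had 1677, 1648 and 1346 in control and 1730, 1686 and 1696 in resveratrol, with a difference of 0.14 ± 0.09 (SE, limma adjusted p = 0.440) and 0.18 at its second probe set.

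The protein disulfide isomerases themselves lay on both sides of 0. P4hb, the founding member of the family, had 5557 ± 618 (SD, n = 3) in control and 5556 ± 513 in resveratrol, a difference of 0.00 with a 95% interval from -0.23 to 0.24. Pdia3, which works with the lectin chaperones, had 0.05, and Pdia4 had 0.03. Pdia5 had -0.11 and Pdia6 had -0.17. The limma adjusted p of these 5 genes ran from 0.428 to 0.995.

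The sensors and factors gave 0 calls over 3 genes and 11 tested probe sets, too few to set against the 10.6% of all genes called. Xbp1 had 3883, 3473 and 3064 on the control arrays and 3399, 3364 and 3108 on the resveratrol arrays. The resveratrol arrays lay inside the range of the controls. The difference was -0.07 ± 0.10 (SE, limma adjusted p = 0.743), and the other probe sets had -0.07, -0.04 and 0.01. Total Xbp1 RNA was measured, and neither its splicing nor the cleavage of ATF6 or the activity of IRE1 was.

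Ern1, which encodes IRE1, had 135, 118 and 157 in control and 112, 116 and 126 in resveratrol, with overlapping groups. The difference was -0.18 ± 0.12 (SE, limma adjusted p = 0.426), and 3 dimmer probe sets had 0.01, -0.11 and 0.22. Atf6 had 138, 140 and 139 in control and 121, 114 and 111 in resveratrol, so all treated arrays were lower. Its difference was -0.24 ± 0.10 (SE, limma adjusted p = 0.172). A second probe set was lower on all treated arrays too, at -0.20 (0.344), while the dimmest had 0.29 (0.372), so the gene's probe sets did not share a direction.

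**Figure D3:**
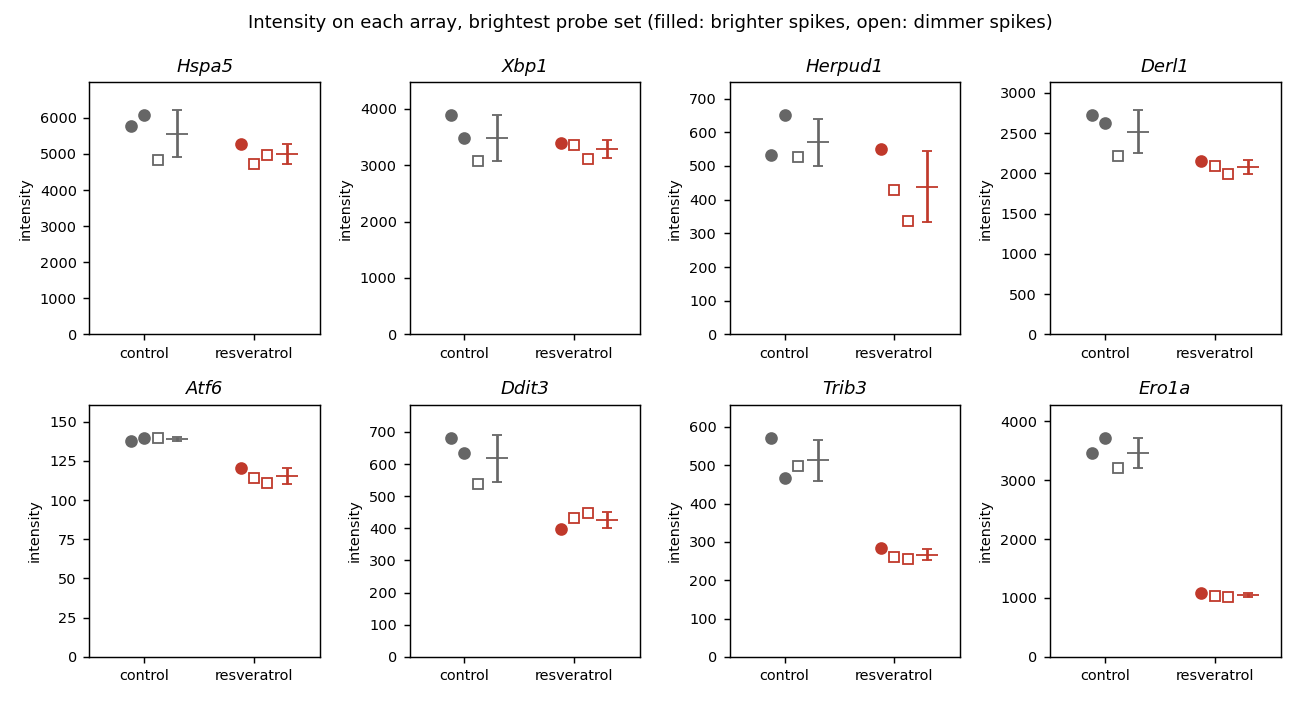
Intensity (vertical axis, linear, from 0) on each array for the brightest probe set of 5 members and 3 other stress and folding genes, with the mean and SD of each group beside the points. Filled circles are the arrays of brighter spikes and open squares those of dimmer spikes; the groups overlap for Hspa5, Xbp1 and Herpud1 and lie far apart for Ero1a.

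The degradation genes, 8 genes with 19 tested probe sets, gave 0 calls and held the lowest differences of the members. Herpud1 encodes a membrane protein that gathers the degradation complex and is strongly induced by stress in this compartment. It had 534, 651 and 527 on the control arrays and 550, 429 and 338 on the resveratrol arrays, so that resveratrol replicate 1 lay among the controls and the other two lay below them. The difference was -0.39 ± 0.15 (SE, limma adjusted p = 0.146), a ratio of 0.765 with a 95% interval from 0.611 to 0.958. Its second probe set had -0.15 ± 0.09 (0.375). Among the arrays of brighter spikes the difference was -0.10 and among those of dimmer spikes -0.45. Without resveratrol replicate 1 it passed, at -0.56 (limma adjusted p = 0.0362). It was smaller without resveratrol replicate 3, at -0.22 (0.374), and without control replicate 2, at -0.29 (0.386).

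Derl1, a channel component through which misfolded proteins leave, had 2721, 2625 and 2209 in control and 2156, 2090 and 1989 in resveratrol. All treated arrays were lower, control replicate 3 by a narrow margin. The difference of -0.27 ± 0.09 (SE) had a limma adjusted p of 0.102, the lowest among the members' brightest probe sets. Either of 2 changes of setting brought it past the threshold, namely quantile normalization (-0.23, adjusted p = 0.0412) and the omission of control replicate 3 (-0.36, 0.0160). The gene's other probe sets had -0.14, 0.00 and 0.02.

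Of its relatives, Derl2 had 0.16 ± 0.08 (SE, limma adjusted p = 0.260). Derl3 was close to the dim end, between 6.8 and 48.9, and its interval from -0.89 to 0.70 was the widest of all members. Sel1l and Syvn1, the core of the ubiquitin ligase that serves this pathway, had -0.16 and 0.04 (limma adjusted p = 0.414 and 0.824). Edem1 and Edem2, which mark glycoproteins for removal, had 0.00 and -0.03. Edem1 was steady from array to array, with 799 ± 16.1 (SD, n = 3) in control and 798 ± 8.12 in resveratrol. Its second probe set was lower on all treated arrays, at -0.14 ± 0.07 (SE, limma adjusted p = 0.290).

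The translocon genes, through which proteins enter the compartment, gave 0 calls, and all 4 differences lay between -0.10 and 0. The shared sign did not hold with a block for the brightness of the spike controls, described further on. With it Sec61a1 had 0.05, Ssr1 0.03, Sec61b -0.05 and Serp1 -0.06. Sec61a1, the channel itself, had 3806 ± 349 (SD, n = 3) in control and 3766 ± 270 in resveratrol, a difference of -0.01. Sec61b, a small subunit, had -0.08. Ssr1, a translocon-associated protein, had -0.01, and Serp1, which stabilises membrane proteins at the channel, had -0.10. The 13 probe sets of these genes ran from -0.18 to 0.10, and limma's adjusted p of the 4 genes from 0.544 to 0.974.

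**Figure D4:**
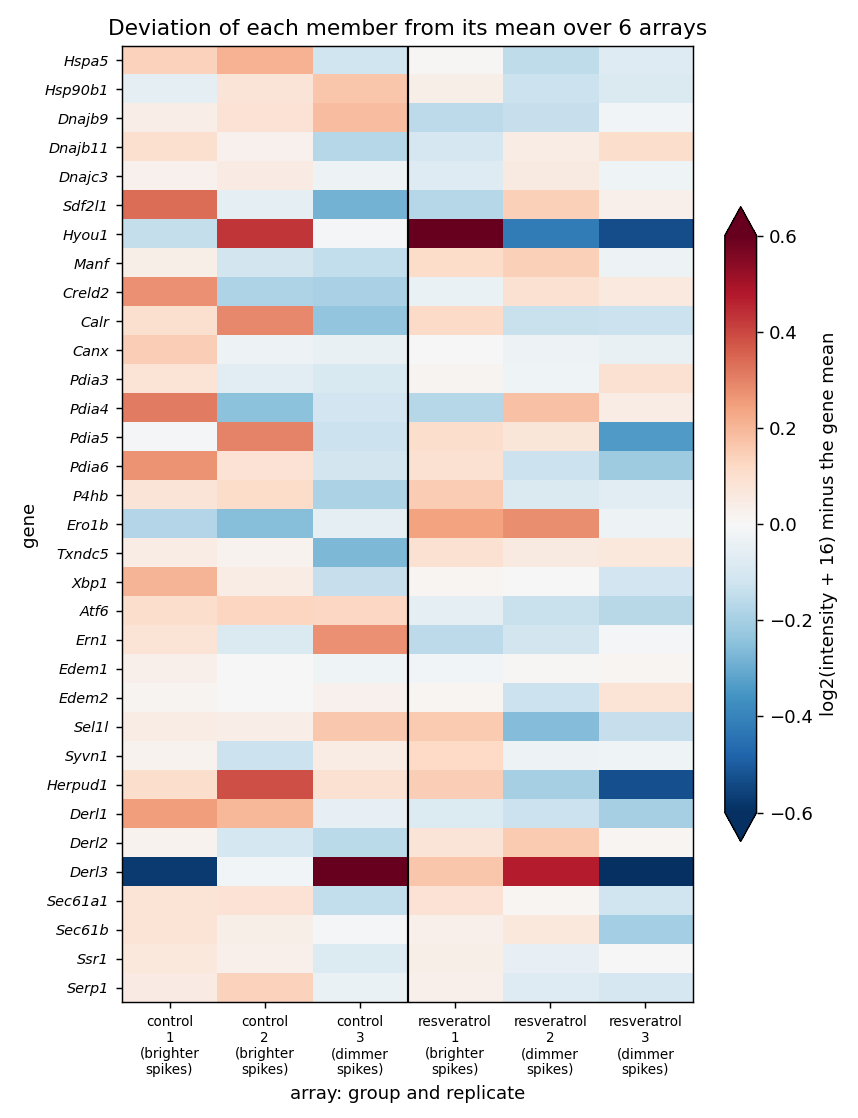
Each member's log2(intensity + 16) on each array (columns) minus its own mean over the 6 arrays, at its brightest probe set (rows, ordered by role), with red above and blue below the mean and the scale ending at 0.6. The line parts the 3 control from the 3 resveratrol arrays; Hyou1 and Derl3 vary most within the groups.

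The members with a stress response element could be set beside those without. The 11 members with either element had a median difference of -0.09, from -0.39 to 0.32, and 8 of the 11 were below 0. That median was the value of Derl3, a dim gene with an SE of 0.36. The 17 members with a promoter but no such element had a median of -0.01, with 10 below 0. The difference between these sets was not tested. Of the 45 genes with either element in the whole promoter table, 20 were tested, 11 members and 9 others. Of these, 0 passed in limma, against 10.6% of all genes. The lowest adjusted p of these 20 was that of Acacb, an acetyl-CoA carboxylase, with -0.81 ± 0.24 (SE, limma adjusted p = 0.0659).

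A split of the arrays that does not follow the groups touched the brightest members most, and some dimmer ones too. On control replicates 1 and 2 and resveratrol replicate 1, the 18 spike control probe sets had median intensities of 1239, 1262 and 964, and on the other arrays 591, 743 and 666. These arrays are called brighter and dimmer here, from the controls alone and not from a label. All 3 brighter arrays lay above all 3 dimmer ones for 15 of the 78 member probe sets (19.2%), against 4.94% of all probe sets. Above a mean intensity of 4000 it was so for all 5 member probe sets, 1 each of Hspa5 and P4hb and 3 of Calr, against 257 of 353 in the table (72.8%). The brighter arrays were higher by a median of 0.32 on the log2 scale over these 5 and of 0.27 over all 353. At a mean of 4000 or less all brighter arrays lay above all dimmer ones for 10 of 73 member probe sets (13.7%). In the table that share was 4.04%. The brightest probe set of Herpud1 was among the 10. With this split as a block, Hspa5 had -0.08 (limma adjusted p = 0.553), Calr 0.01 (0.950) and P4hb 0.09 (0.458), and Dnajb9 and the second probe set of Hsp90b1 had -0.24 (0.0657) and -0.27 (0.0545). Herpud1 had -0.28 with this block (limma adjusted p = 0.244). The share of this split in the members' values was not tested further.

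Other genes of the same machinery did pass. Of 183 further genes on 6 lists, 175 were tested at their brightest probe set, of which 6 were higher and 14 lower in limma, 11.4% against 10.6% of all genes. Their median difference was 0.02, as over all genes.

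Ero1a, the oxidase that is the close relative of Ero1b and is also known as a hypoxia-responsive gene, fell furthest. It had 3454, 3724 and 3208 on the control arrays and 1085, 1037 and 1021 on the resveratrol arrays, with a wide gap between the groups. The difference was -1.71 ± 0.08 (SE, limma adjusted p = 1.2e-06), a ratio of 0.306 with a 95% interval from 0.271 to 0.346, and the other probe sets had -1.89 and -1.84. It was called under all 16 alternatives. Ero1a and Ero1b thus had differences of opposite sign, of which only that of Ero1a passed; the difference between them was not tested.

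On the list of the PERK arm and other response genes, 2 of 21 were lower and 0 higher, 9.52% against 10.6% of all genes. The differences lay on both sides of 0, with 11 of 21 above it and a median of 0.00. The groups did not overlap for 9 of the 21 (42.9%), 5 on the higher side and 4 on the lower. That share was 41.7% over the further lists together and 30.2% over all genes. The highest difference of the list was that of Atf3, a stress-induced factor named here after its value was seen, at 0.92 ± 0.32 (SE, limma adjusted p = 0.116). Atf3 had 58.7, 50.7 and 11.3 in control and 59.4, 97.0 and 91.8 in resveratrol, so that control replicate 3 stood well below the rest. Trib3 had 572, 466 and 499 in control and 283, 262 and 256 in resveratrol, and the groups lay far apart. It fell by 0.90 ± 0.09 (SE, limma adjusted p = 1.9e-04), and was called under all 16 alternatives. Its second probe set had -0.32 (0.257). Ddit3 had 682, 634 and 537 in control and 399, 432 and 447 in resveratrol, again apart, and fell by 0.51 ± 0.10 (SE, limma adjusted p = 0.00777). It was lost with no intensity trend (0.0604), and its second probe set had -0.25 (0.320).

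Their upstream genes did not pass. Atf4, the factor that drives Ddit3 and Trib3, had 2585, 2874 and 2935 in control and 2858, 2605 and 2692 in resveratrol, with -0.04 ± 0.08 (SE, limma adjusted p = 0.839) and 0.18 (0.219) at a second probe set. Eif2ak3, which encodes PERK, had 518, 482 and 516 in control and 457, 431 and 462 in resveratrol. All treated arrays were lower, at -0.16 ± 0.07 (SE, limma adjusted p = 0.234). ATF4 is controlled largely through translation, which arrays do not read.

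The remaining lists held scattered calls in both directions. The share called on each ran from 11.1% to 13.0%, against 10.6% of all genes. Among 36 other folding enzymes 2 were higher, the thioredoxin-related Tmx2 at 0.49 and the sulfhydryl oxidase Qsox1 at 0.29, and 2 were lower, Ero1a and Fkbp2. Among 27 other degradation genes Ubqln2 (0.39) and Ube2g2 (0.42), a ubiquilin and a ubiquitin-conjugating enzyme, were higher and Fam8a1 (-0.32) lower. Among 23 other translocon genes Srprb, a subunit of the signal recognition particle receptor, was higher at 0.40, while Sec63 (-0.32) and Tram1 (-0.36) were lower. With the mean over a gene's probe sets in place of the brightest one, Tram1 was at 0.08, Sec63 at -0.20 (limma adjusted p = 0.162) and Qsox1 at 0.10 (0.441).

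Of 33 genes of N-linked glycosylation 0 were higher and 4 lower, 12.1% against 10.6% of all genes. The median of this list was 0.04, with 18 of the 33 above 0. Among the 4 were Gfpt1 (-0.33) and Uap1 (-0.47), which make the sugar donor UDP-N-acetylglucosamine, and Magt1 (-0.37), a subunit of the oligosaccharyltransferase. Of 35 genes of transport between the compartment and the Golgi, the cargo receptor Lman2 was higher at 0.31 and 3 were lower, among them the coat subunit Copb1 (-0.41) and the SNARE Bet1 (-0.49). The call of Tmx2 held under all 16 alternatives, and those of Srprb and Copb1 were lost only with no intensity trend. The other calls given here with a value were lost when 1 of the arrays was left out, which also lowers the number of arrays in the test. Without resveratrol replicate 2, limma no longer called Qsox1, Ubqln2, Ube2g2, Fam8a1, Sec63, Tram1, Gfpt1, Uap1, Magt1 or Lman2 (adjusted p from 0.0582 to 0.132), though for example Qsox1 was still at 0.28, Fam8a1 at -0.33 and Gfpt1 at -0.34, and without control replicate 2 it no longer called Bet1 (0.0521). Each other array, when left out, also cost some of these calls. With the spike split as a block Lman2 (0.28, adjusted p = 0.0527) and Uap1 (-0.38, 0.0558) were lost.

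Markers of the cells stood beside these values. Adipoq and Fabp4, which define fat cells, had 8620 and 11745 in control and 6840 and 9926 in resveratrol, so fat cell transcripts were abundant in both groups. Over all genes 10.6% were called, so 1 call in a marker set this small, here or below, says little. Of the 5 adipocyte markers tested 0 were higher and 1, Cidec, was lower, at -0.57, and all 5 differences were below 0, with a median of -0.26. With the spike split as a block that median was -0.17. It was -0.30 among the arrays of brighter spikes and 0.01 among those of dimmer spikes. Resveratrol replicate 1 is the only treated array among the brighter ones, and control replicate 3 the only control array among the dimmer ones. Of the 5 markers 3 were higher on all brighter than on all dimmer arrays. The summed signal of the 6 adipocyte markers measured ran from 27558 to 42707 in control and from 26864 to 33555 in resveratrol. Of 6 preadipocyte and fibroblast markers 1, Thy1, was called higher, at 0.40, and 0 were called lower. The 6 differences lay on both sides of 0, 3 above and 3 below, with a lowest of -0.32 and a median of -0.02. The macrophage markers summed to between 225 and 289 in control and between 306 and 337 in resveratrol, with Ptprc and Itgam too dim to be tested and Cd14 higher at 0.47. In a bulk sample fewer cells of a type and less RNA per cell cannot be told apart, and the part of these shifts in the members' values was not tested.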

How the data were processed

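The authors deposited 1 linear intensity for each probe set. The sources used here do not give how probes were summarised. As read from the values, the authors scaled each array so that its mean after trimming 2% at each end is 150. The members, lists and tests were chosen with earlier results of these data known.

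Of 45101 probe sets, 64 are controls, 34945 name 1 gene, 932 several and 9160 none in the platform annotation. Through Entrez numbers 34754 matched RefSeq of GRCm38.p6, and 0 symbols differed. Fkbp10, Sec61g, Srp54a, Plin1 and Cfd were among the listed genes not analysed here.

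The 60% of non-control probe sets with the highest mean, 27022, were turned into log2(intensity + 16) and fitted with limma 3.58.1 in R 4.3.3 (lmFit, eBayes with an intensity trend, Benjamini-Hochberg). The fit was tested on simulated arrays. By rule, array values are given for Hspa5, Hsp90b1, Xbp1, Atf6, Ern1, Ddit3, Atf4, Trib3, Eif2ak3 and Ero1a and any called member, and up to 3 called genes of each further list are named. The 16 alternatives cover normalization, offset, filter, variance model, blocks, probe sets and leaving out each array. Figures were drawn with matplotlib 3.10.9 in Python 3.11.15.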

Additional observations from a re-analysis of the deposited data

How the results depend on the processing

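The count of 0 called member genes in limma was 1 with quantile normalization, and ran from 0 to 1 when each array was left out in turn, with Derl1 called without control replicate 3 and Herpud1 without resveratrol replicate 1. The count of member probe sets called lower was 2 with quantile normalization (Hsp90b1 and Derl1), 1 over the brightest 40% and 0 to 1 with an array left out. Of 522 values of single members under the alternatives, 519 stayed uncalled and 3 were newly called, with their sign unchanged. Under the setting used for the results 0 members were called, so no call could be lost. Leaving out an array also makes a call harder to reach. The sign of 17 of the 33 uncalled members turned under 1 or more alternatives. Over all probe sets the 2220 calls became 1396 with no filter, 848 with no intensity trend and 1114 to 1953 with an array left out. The 20 called genes of the further lists became 10 with no filter and 3 with no intensity trend, and Tram1 reversed to 0.0765 with the mean of its probe sets; the cause was not tested. Deviations of same-numbered arrays correlated at -0.06, -0.01 and 0.09, and those of differently numbered arrays from -0.08 to 0.09. The labels do not say whether same-numbered arrays belong together, and correlations this close to 0 cannot settle it. With the replicate block limma called 1880 probe sets and 0 members.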
